A study of Homo sapiens with 24 samples.

Results

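The 10 genes described here, CD34, PROM1, CD33, CD38, CD99, CLEC12A, ADGRG1, BAALC, MN1 and SPINK2, are used to recognise stem-like or leukaemic cells in acute myeloid leukaemia (AML). They were taken by symbol from the 52994 genes to which transcripts of the tables could be assigned. UCSD-AML1 and ELF-153 are human AML cell lines, each a single established line, so that differences between them are differences between 2 lines and not between leukaemia types. Both were kept in medium with 20% serum and 5 ng/ml of the growth factor GM-CSF, which all groups shared. The treated cells received 100 nM decitabine (DAC) on each of 4 days and were harvested at 96 h or 144 h, and the controls were untreated cells of the same line and harvest. Each of the 8 groups held 3 libraries, described as technical triplicates, so the p-values cover no more than the spread among such libraries, which may be technical.

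Surface antigens of this kind are read by flow cytometry to separate immature from maturing blood cells. CD34 marks stem and progenitor cells and is lost as they mature, whereas CD33 and CLEC12A (also called CLL-1) mark myeloid progenitors and leukaemic cells and are targets of antibody therapies. CD38, an enzyme that consumes NAD, is low on the most immature CD34+ cells and is gained by progenitors. MN1 and BAALC are genes whose high expression has been linked to poor outcome in AML. DAC is built into replicating DNA in place of deoxycytidine and binds the methyltransferases there, which lowers CpG methylation over cell divisions. Methylation of start regions is one of the known layers of control of lineage genes in blood cells.

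The libraries held 13148881 to 28528757 assigned reads, of which mitochondrial ribosomal RNA took 13.1% to 63.8%. That share averaged 62.9 ± 1.07% in treated and 50.1 ± 1.08% in untreated UCSD-AML1 cells at 96 h, and 43.4 ± 6.25% in treated and 25.2 ± 11.1% in untreated ELF-153 cells (SD, n = 3). At 144 h it was 51.2 ± 10.8% and 49.4 ± 4.25% in treated and untreated UCSD-AML1, and 47.0 ± 5.79% and 24.3 ± 12.1% in treated and untreated ELF-153. The haematopoietic genes PTPRC, SPI1 and RUNX1 were read in every group, and the epithelial markers EPCAM, CDH1 and KRT19 together reached at most 3.89 scaled reads in a library. Megakaryocyte markers (ITGA2B, ITGB3, GP1BA, GP9 and PF4) summed to 59693 to 71560.4 scaled reads in treated against 9994 to 11328 in untreated UCSD-AML1 libraries at 96 h, and to 2516 to 3672 against 307 to 427 in ELF-153. At 144 h the megakaryocyte sum was again higher in all treated than in all untreated libraries of each line. The monocyte list (CD14, ITGAM, CSF1R, LYZ, FCGR1A and CD163) summed to 1277 to 1606 in treated and 146 to 261 in untreated ELF-153 libraries at 96 h. In UCSD-AML1 it summed to 512 to 607 and 386 to 449.9. Most of the ELF-153 sum was LYZ, with 1320.4 ± 173 in treated and 195 ± 60.3 in untreated cells, and all 4 tested genes of the list were called higher there. In UCSD-AML1 only LYZ was called (252 ± 79.5 and 92.9 ± 24.3). There ITGAM did not pass (log2 change −0.34, adjusted p = 0.23, limma) and CSF1R was level (147 ± 38.1 and 144 ± 11.9). CD14 was at 0 in both untreated groups and averaged 4.02 ± 3.34 in treated UCSD-AML1 and 0.316 ± 0.547 in treated ELF-153. KLF1, an erythroid transcription factor, averaged 1455 ± 431 scaled reads in treated and 155 ± 18.8 in untreated ELF-153 at 96 h, and 380 ± 88.8 and 1.31 ± 1.64 in UCSD-AML1. The fetal globin gene HBG1, whose reads may be shared with its near-identical copy, averaged 1989 ± 881 and 4.48 ± 1.96 in ELF-153 and 189 ± 63.7 and 3.98 ± 0.739 in UCSD-AML1. At 144 h KLF1 had 2056 ± 190.3 in treated and 205 ± 60.3 in untreated ELF-153, and 319 ± 74.9 and 7.56 ± 2.76 in UCSD-AML1. KLF1 was thus higher with DAC in both lines at both harvests. The granulocyte list (MPO, ELANE, PRTN3, AZU1 and CEACAM8) summed to 21.5 at most, with ELANE at 0 in all groups; CEACAM8 had 15.7 ± 5.04 in treated and 0 in untreated ELF-153 at 144 h. The B-cell gene CD79A was lower with DAC, with 104 ± 17.7 in treated and 290.3 ± 19.8 in untreated UCSD-AML1 and 82.4 ± 9.84 and 138 ± 37.8 in ELF-153 at 96 h, and MS4A1 was at 0 in all groups. The part of these other lineages' genes in the results below was not tested.

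Levels below are sums over a gene's transcripts of the deposited scaled reads, that is reads divided by a single factor per library. Transcripts of a gene differ widely in how many reads are listed for them and no length was used, so a level can be compared between groups of libraries but not between genes. Log2 differences are on the log2(scaled reads + 1) scale, which understates changes of genes with few reads. Adjusted p-values come from limma and cover every feature of a harvest's table, and the words rose and fell are kept for values with such a p below 0.05. In RNA of whole cultures, fewer cells that express a gene and less RNA per cell cannot be told apart.

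Since DAC acts on CpG methylation, the start regions of the 4 members whose windows lie within 300 bases of the start of their main coding transcript are shown, with CpG dinucleotides in capitals. The windows come from RefSeq (GRCh38.p14), run from 250 bases before to 50 bases after the annotated start and are written in the direction of transcription. The start of the main coding CD34 transcript lies 277 bases from that of its window, and so outside the sequence shown. CD38 lies at chr4:15778078-15778377 on the plus strand, CD34 at chr1:207911076-207911375 on the minus strand, CD33 at chr19:51224830-51225129 on the plus strand and SPINK2 at chr4:56821652-56821951 on the minus strand.
CD38: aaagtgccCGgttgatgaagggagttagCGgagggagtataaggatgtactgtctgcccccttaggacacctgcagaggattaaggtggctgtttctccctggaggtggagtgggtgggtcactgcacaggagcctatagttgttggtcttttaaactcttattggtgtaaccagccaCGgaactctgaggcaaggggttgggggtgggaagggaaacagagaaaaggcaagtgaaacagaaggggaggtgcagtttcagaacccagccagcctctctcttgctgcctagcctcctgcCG
CD34: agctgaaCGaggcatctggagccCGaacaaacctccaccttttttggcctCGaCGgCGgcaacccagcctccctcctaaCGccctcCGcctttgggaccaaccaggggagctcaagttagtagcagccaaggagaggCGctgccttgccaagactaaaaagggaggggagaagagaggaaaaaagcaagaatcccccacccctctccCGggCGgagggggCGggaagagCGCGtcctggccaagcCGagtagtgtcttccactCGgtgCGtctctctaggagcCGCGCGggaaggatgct
CD33: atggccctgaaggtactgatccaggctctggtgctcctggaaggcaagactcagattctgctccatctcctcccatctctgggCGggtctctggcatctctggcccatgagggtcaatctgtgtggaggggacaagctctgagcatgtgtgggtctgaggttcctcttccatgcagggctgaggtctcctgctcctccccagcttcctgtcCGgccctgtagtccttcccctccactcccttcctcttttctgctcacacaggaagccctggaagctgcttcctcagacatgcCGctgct
SPINK2: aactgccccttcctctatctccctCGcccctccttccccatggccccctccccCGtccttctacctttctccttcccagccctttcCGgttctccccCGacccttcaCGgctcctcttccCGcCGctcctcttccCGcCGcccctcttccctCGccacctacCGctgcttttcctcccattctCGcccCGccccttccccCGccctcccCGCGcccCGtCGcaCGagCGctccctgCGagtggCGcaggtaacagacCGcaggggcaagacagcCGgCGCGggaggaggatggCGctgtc
The window of CD38 held 4 CpG and that of CD33 held 3, against a median of 14 over all 35116 windows. As few or fewer were found in 29.6% of windows for CD38 and in 24.5% for CD33. The CD34 window held 19 CpG and the SPINK2 window 27, more than the median window. A second SPINK2 window, 127 bases from the same coding start and overlapping the one shown, held 10. Of these genes, CD38 rose in both lines at 96 h, CD33 and CD34 fell in both lines at 144 h and SPINK2 fell in ELF-153. Methylation itself was not measured in the files used here, and a link between CpG number and these changes was not tested. The letters GAGGAA, a core sequence bound by ETS factors such as PU.1, were searched on both strands and occurred in the windows of CD34, CD33 and SPINK2 and in 27.9% of all windows. AGATAA (the GATA factor core, in 10.3% of windows) and TGTGGT (the RUNX core, in 13.1%) occurred in none of these 4 windows, and none of the 3 motifs contains another. In all, 8 of the 10 members had 14 windows in the RefSeq table. The window of CLEC12A, with 0 CpG, starts 20093 bases from the start of the CLEC12A transcript with most reads and is not shown for that reason, and the windows of ADGRG1 lie at least 14377 bases from its main coding start.

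**Figure D1:**
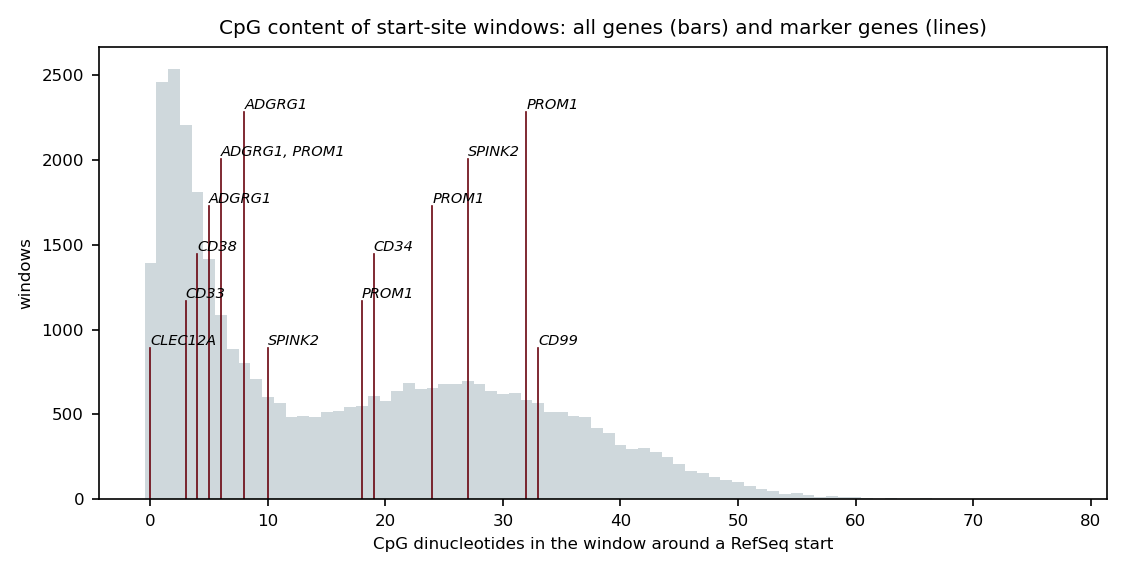
Number of CpG dinucleotides in the 300-base start windows of RefSeq genes: the x axis counts CpG per window, the y axis counts windows, bars are all 35116 windows and each line is a window of a named member. CLEC12A (0), CD33 (3) and CD38 (4) lie in the CpG-poor peak, CD34 (19), CD99 (33) and the window of SPINK2 with 27 lie in the broad CpG-rich peak, and PROM1 and ADGRG1 have several windows.

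With DAC, the members fell more often than they rose in ELF-153. At 96 h, 8 of the 10 members passed the filter on low values: in treated against untreated ELF-153 cells CD38 rose and 5 fell (CD34, CD33, ADGRG1, MN1 and SPINK2), where 32.7% of all features tested were called, 20.1% higher and 12.7% lower. In UCSD-AML1 at 96 h CD38 rose and CD33 and CLEC12A fell, where 39.2% of features were called, 19.7% higher and 19.6% lower. At 144 h 7 members passed the filter: in ELF-153 5 fell (CD34, CD33, BAALC, MN1 and SPINK2) and the other 2, ADGRG1 and CLEC12A, did not pass, against 38.4% of features called, 20.4% higher and 18% lower. In UCSD-AML1 at 144 h ADGRG1 rose and 3 fell (CD34, CD33 and CLEC12A), against 46.1% of features called, 20% higher and 26.2% lower. The change in ELF-153 was above that in UCSD-AML1 for CD38 and below it for ADGRG1 and MN1 at 96 h, where 16.4% of features were called higher and 8.62% lower. At 144 h it was below that in UCSD-AML1 for ADGRG1 and MN1, where 19.4% and 10.2% of features were called. The differences of CLEC12A and SPINK2 also passed at both harvests, but with one line at or near 0 they mainly restate the fall in the other line and are not counted here. CD38, SPINK2 and CLEC12A passed the filter through the groups in which they were high, so the counts cover the members that could be tested and not the whole list. The median log2 change of the tested members was −0.91 in ELF-153 and 0.16 in UCSD-AML1 at 96 h, and −1.37 and −0.71 at 144 h. With near-0 members at their read ratio or bound it was −0.97 and 0.07 at 96 h and −1.37 and −0.57 at 144 h. Over all features the median change was 0.16 in ELF-153 and −0.02 in UCSD-AML1 at 96 h, and 0.11 and −0.12 at 144 h. Scaling by TMM (trimmed mean of M values) in limma moved these medians to 0.12, 0.10, 0.09 and 0.06 in the same order.

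**Figure D2:**
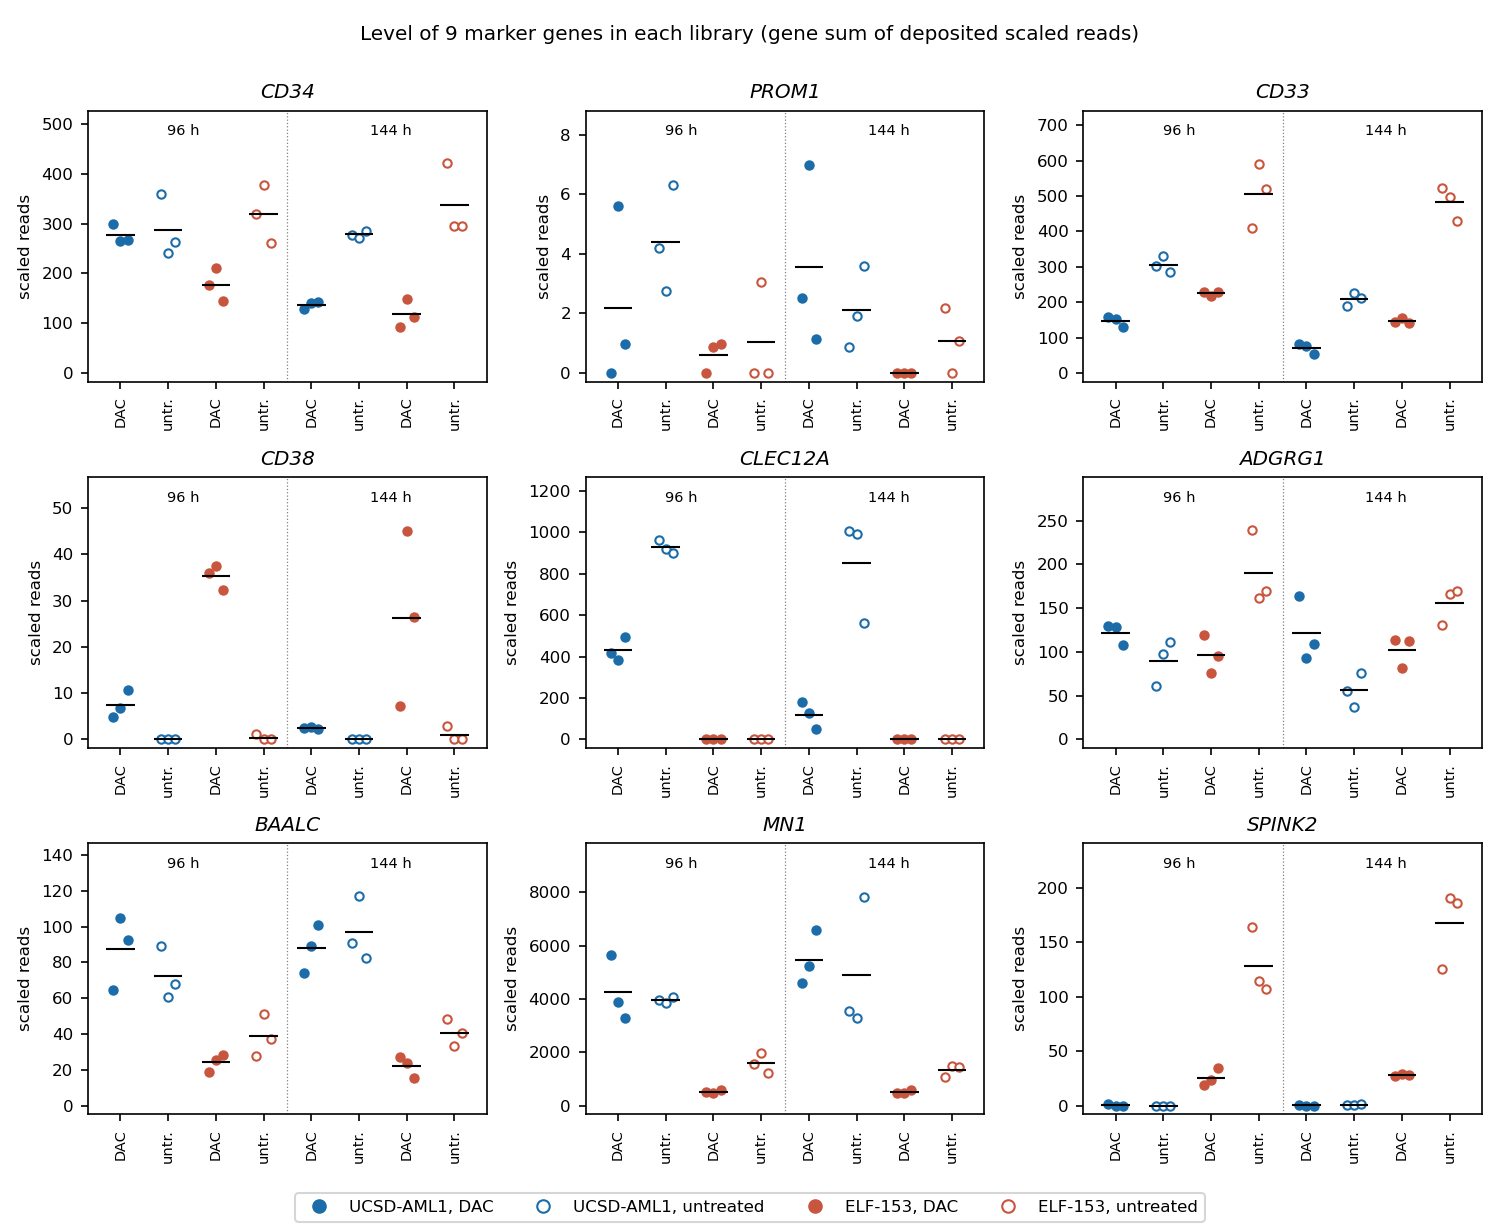
Scaled reads (y axes) of 9 members in each of the 24 libraries, in treated (DAC, filled) and untreated (untr., open) UCSD-AML1 (blue) and ELF-153 (red) cells at 96 h and 144 h; lines are means of 3 libraries. CD33 is lower with DAC in all 4 pairs of groups, CD38 is read almost only in treated cells, CLEC12A is confined to UCSD-AML1 apart from 5 reads and SPINK2 to ELF-153 apart from 6 reads; CD99 had no reads and is not drawn.

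CD34 (ENSG00000174059, chromosome 1), the cell-surface sialomucin that marks haematopoietic progenitors, fell with DAC in ELF-153 at both harvests and in UCSD-AML1 at 144 h. In ELF-153 at 96 h it had 176, 210.2 and 145 scaled reads in treated libraries, against 319, 378 and 262 in untreated ones. The groups did not overlap, and the log2 change was −0.85 ± 0.21 (SE, adjusted p = 0.0068, limma). UCSD-AML1 at 96 h had 300.0, 266 and 268 in treated libraries and 359, 241 and 263 in untreated ones, which overlapped. Its change was −0.03 with a 95% interval of −0.48 to 0.42 (adjusted p = 0.937), and the sign turned under TMM scaling (0.12), edgeR (0.10) and DESeq2 (0.08).

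By 144 h CD34 had 129, 140.0 and 142 scaled reads in treated UCSD-AML1 libraries, against 277, 272 and 286 in untreated ones. The values lay close together within each group and well apart between groups (log2 change −1.02 ± 0.21, adjusted p = 0.00151, limma). ELF-153 had 93.2, 148 and 113 in treated and 423, 296 and 296 in untreated libraries, a log2 change of −1.52 ± 0.21 (adjusted p = 7.3e-05). The difference between the 2 lines' changes was −0.82 ± 0.30 at 96 h (adjusted p = 0.0568) and −0.50 ± 0.29 at 144 h (adjusted p = 0.204), neither of which passed the test; on coding classes the 144 h difference was −1.25 (adjusted p = 0.0133). The 96 h difference passed under 6 of the other settings (adjusted p 0.0112 to 0.0285 in those) and without untreated UCSD-AML1 replicate 1 (−0.99), untreated ELF-153 replicate 3 (−0.96) or treated ELF-153 replicate 2 (−0.95).

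The fall of CD34 in UCSD-AML1 at 144 h was uneven over its transcripts. The coding transcript ENST00000356522 averaged 93.5 ± 22.4 scaled reads in treated and 108 ± 13.6 in untreated cells (SD, n = 3). The coding transcript ENST00000367036 had 17.2 ± 10.2 and 44.9 ± 13.2, and ENST00000485761, annotated as processed and not coding, had 26.4 ± 9.26 and 125 ± 10.5. Summed over transcripts other than retained-intron, processed and decay classes, the CD34 change in UCSD-AML1 at 144 h was −0.47 and did not pass (adjusted p = 0.0997). In ELF-153 at 144 h the same coding transcripts had 51.6 ± 12.8 against 168 ± 38.0 and 34.5 ± 26.1 against 111 ± 62.7, and the sum over coding classes kept its fall (−1.72, adjusted p = 5.57e-05).

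PROM1 (ENSG00000007062, chromosome 4), which encodes the stem cell antigen CD133, was barely read and was not tested. Its groups held 2 reads in treated and 3 in untreated ELF-153 at 96 h, and 6 and 15 in UCSD-AML1. At 144 h they held 0 and 4 in treated and untreated ELF-153, and 12 and 6 in UCSD-AML1. The ratio of treated to untreated UCSD-AML1 was 0.451 at 96 h and 1.87 at 144 h, with exact 95% counting intervals of 0.143 to 1.23 and 0.65 to 6.07, both of which include no change. None of the 48 PROM1 reads of the 24 libraries lay on a transcript annotated as coding.

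CD33 (ENSG00000105383, chromosome 19), a sialic acid-binding receptor of myeloid cells, fell with DAC in both lines at both harvests. In UCSD-AML1 at 96 h it had 157, 151 and 131 scaled reads in treated against 303, 330.0 and 284 in untreated libraries (log2 change −1.06 ± 0.17, adjusted p = 0.000321, limma). ELF-153 at 96 h had 229, 217 and 228 in treated against 410.0, 591 and 519 in untreated libraries (−1.15 ± 0.17, adjusted p = 0.000185). Every treated library lay below every untreated one of its line. At 144 h UCSD-AML1 had 80.7, 77.0 and 54.0 in treated against 190.1, 225 and 212 in untreated libraries (−1.57 ± 0.19, adjusted p = 3.15e-05). The treated ELF-153 libraries at 144 h had 144, 155 and 142, against 522, 497 and 430.3 in untreated ones (−1.71 ± 0.19, adjusted p = 1.27e-05). Treated and untreated groups were separate in all 4 pairs, and the changes of the 2 lines differed by −0.09 at 96 h (95% interval −0.62 to 0.44) and by −0.14 at 144 h (−0.72 to 0.44).

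Of the 6531 reads of CD33, 96.0% lay on transcripts annotated as retaining an intron, 68.5% on ENST00000598473 and 27.5% on ENST00000601785. Both transcripts had lower means in treated cells: at 144 h ENST00000598473 had 44.8 ± 14.4 scaled reads in treated and 137 ± 9.33 in untreated UCSD-AML1, and 105 ± 10.6 and 281 ± 75.9 in ELF-153. ENST00000601785 had 21.8 ± 2.34 and 64.7 ± 10.7 in treated and untreated UCSD-AML1, and 35.6 ± 1.76 and 182 ± 44.6 in ELF-153. The 2 coding transcripts, which differ by inclusion of an exon, held 262 reads, 4.01% of the gene. On coding classes alone the CD33 change was −1.62 in ELF-153 at 144 h (adjusted p = 0.0396), and it missed the test in UCSD-AML1 at 96 h (−1.03, adjusted p = 0.105), in ELF-153 at 96 h (−0.89, adjusted p = 0.173) and in UCSD-AML1 at 144 h (−0.94, adjusted p = 0.193).

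CLEC12A (ENSG00000172322, chromosome 12), an inhibitory lectin receptor of myeloid cells, was read in UCSD-AML1 and fell there with DAC. At 96 h it had 418, 382 and 493 scaled reads in treated and 962, 921 and 899 in untreated UCSD-AML1 libraries, with no overlap (log2 change −1.11 ± 0.26, adjusted p = 0.00411, limma). At 144 h it had 181, 128 and 48.4 in treated and 1006, 994 and 563 in untreated UCSD-AML1 libraries (−2.98 ± 0.56, adjusted p = 0.000955). The lower untreated value is replicate 3, a library that also stood apart for MN1, and without it the change was −3.25 (adjusted p = 0.00142). The leading coding transcripts ENST00000355690 and ENST00000434319 both followed: at 144 h they averaged 32.8 ± 25.5 and 67.0 ± 28.0 in treated cells, against 433 ± 147 and 320 ± 79.8 in untreated cells.

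ELF-153 had no CLEC12A read in any library at 96 h or in untreated cells at 144 h. At 144 h the treated ELF-153 libraries had 3.66, 0.918 and 0 scaled reads, 5 reads in all, at least 1.70-fold higher than untreated cells on a floor of 3 reads per group. That change did not pass limma's test (adjusted p = 0.159), although it did without treated replicate 3 (adjusted p = 0.0466). CLEC12A overlaps CLEC1B, a platelet lectin receptor gene on the opposite strand, which moved the other way: 789 ± 119 scaled reads in treated and 147 ± 25.3 in untreated UCSD-AML1 at 96 h, and 772 ± 6.12 and 161 ± 16.2 at 144 h. The libraries are stranded, but the sources used here do not say whether the counting used the strand.

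CD38 (ENSG00000004468, chromosome 4) was at or near 0 in untreated cells and was read in treated cells of both lines. At 96 h UCSD-AML1 had 4.92, 6.74 and 10.7 scaled reads in treated libraries and 0 in each untreated one. With 22 against 0 reads, treated UCSD-AML1 cells were at least 8.28-fold higher on a floor of 3 reads per group (adjusted p = 0.000117, limma). ELF-153 at 96 h had 36.0, 37.5 and 32.3 in treated libraries and 1.12, 0 and 0 in untreated ones. The 114 reads against 1 gave a ratio of 105 with an exact 95% counting interval of 18.4 to 4178 (adjusted p = 1.8e-06). These bounds and intervals cover counting error only. At 96 h CD38 passed the filter on low values only through the treated ELF-153 libraries, where it was high. Its p-values therefore belong to a gene that could be tested because of that group.

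At 144 h CD38 missed the filter and was not tested. Treated UCSD-AML1 libraries had 2.52, 2.62 and 2.25 scaled reads and untreated ones had 0, so that 8 reads stood against 0 (at least 2.49-fold higher). ELF-153 had 7.31, 45.0 and 26.4 in treated and 2.90, 0 and 0 in untreated libraries, 81 against 4 reads, a ratio of 20.7 (7.77 to 77.7). All treated libraries of a line lay above all its untreated ones at both harvests, and treated ELF-153 exceeded treated UCSD-AML1 by a read ratio of 4.72 at 96 h (2.97 to 7.82) and 10.5 at 144 h (5.10 to 25.2). Of the 230 reads of CD38, 85.2% lay on the coding transcript ENST00000226279. CD38 is also made by T cells: at 96 h the T-cell list (CD3D, CD3E, CD2 and CD8A) summed to 289.5 to 364 in treated against 143 to 155 in untreated ELF-153 libraries and to 644 to 1008 against 41.0 to 45.1 in UCSD-AML1. Most of that increase was CD2, with 134 ± 30.2 in treated and 7.91 ± 2.85 in untreated ELF-153. In UCSD-AML1 CD2 had 827 ± 181 and 39.2 ± 0.911. CD8A was at 0, and CD3D in ELF-153 did not pass (log2 change 0.48, adjusted p = 0.575, limma). CD3D rose in UCSD-AML1 at 96 h, with 10.7 ± 8.46 in treated and 2.36 ± 3.43 in untreated cells (2.08, adjusted p = 0.0141). The part of this list in the CD38 result was not tested.

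CD99 (ENSG00000002586), a surface glycoprotein enriched on AML stem cells, was listed at 0 in all 24 libraries, with 9 of its 15 annotated transcripts in the tables. The gene lies in the pseudoautosomal region shared by the X and Y chromosomes. Of 18 coding genes of that region in the tables, 16 were at 0 in all 12 libraries at 96 h and 15 at 144 h, with no value above 7.88 scaled reads. The 0 of CD99 is given as a listed value and stands for no level of the gene.

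ADGRG1 (ENSG00000205336, chromosome 16), an adhesion G protein-coupled receptor also known as GPR56 and part of a stem cell expression score, rose in UCSD-AML1 at 144 h and fell in ELF-153 at 96 h, and its changes differed between the lines at both harvests. In UCSD-AML1 it rose at 144 h, with 164, 92.7 and 109 scaled reads in treated against 55.7, 36.4 and 76.3 in untreated libraries (log2 change 1.12 ± 0.29, adjusted p = 0.00701, limma). The 96 h values of 129, 128 and 108 in treated and 60.8, 97.2 and 111 in untreated UCSD-AML1 libraries overlapped (0.47 ± 0.26, adjusted p = 0.163; 0.88 and adjusted p = 0.0208 with the mitochondrial share as a covariate, 0.85 and adjusted p = 0.0841 on coding classes). In ELF-153 it fell at 96 h, with 119, 75.9 and 94.9 in treated against 239.7, 162 and 169 in untreated libraries (−0.97 ± 0.26, adjusted p = 0.0108). The 144 h values of 114, 81.7 and 112 in treated and 131, 166 and 169 in untreated ELF-153 libraries were separate, but the change of −0.60 ± 0.29 missed the test (adjusted p = 0.123).

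The change of ADGRG1 in ELF-153 minus that in UCSD-AML1 was −1.44 ± 0.37 at 96 h (adjusted p = 0.0127) and −1.72 ± 0.41 at 144 h (adjusted p = 0.0101), where 25% and 29.6% of features were called in either direction. ADGRG1 spread its 2885 reads over 20 of 77 transcripts, 30.3% of them coding. On coding classes alone its fall in ELF-153 at 96 h did not pass (−0.60, adjusted p = 0.232), and with the mitochondrial ribosomal RNA share as a covariate it was −0.39 (adjusted p = 0.468). The rise in UCSD-AML1 at 144 h was 2.06 on coding classes (adjusted p = 0.0023).

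MN1 (ENSG00000169184, chromosome 22), a transcriptional co-regulator that drives myeloid leukaemia when over-expressed in mice, fell with DAC in ELF-153 and did not pass the test in UCSD-AML1. In ELF-153 it had 531, 475 and 572 scaled reads in treated against 1574, 1965 and 1230.2 in untreated libraries at 96 h (log2 change −1.57 ± 0.21, adjusted p = 6.04e-05, limma). At 144 h treated ELF-153 had 469, 494 and 579.8, against 1061, 1497 and 1452 in untreated libraries (−1.37 ± 0.28, adjusted p = 0.00191; −0.71, adjusted p = 0.0948, with the mitochondrial share as a covariate). Treated and untreated ELF-153 were well apart at both harvests. UCSD-AML1 had 5643, 3886 and 3280.0 in treated and 3964, 3861 and 4074 in untreated libraries at 96 h, a change of 0.07 (95% interval −0.38 to 0.52).

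At 144 h MN1 had 4618, 5241 and 6573 scaled reads in treated and 3571, 3303 and 7832 in untreated UCSD-AML1 libraries, a change of 0.26 (−0.35 to 0.87). Untreated replicate 3 lay above every other library of the table, and without it MN1 rose with DAC in UCSD-AML1 at 144 h (0.66, adjusted p = 0.0166). The difference between the changes, ELF-153 minus UCSD-AML1, was −1.64 ± 0.30 at 96 h (adjusted p = 0.0019) and −1.63 ± 0.40 at 144 h (adjusted p = 0.0114; −2.02 without that library). Of 69135 MN1 reads, 99.8% lay on the coding transcript ENST00000302326, so the choice of transcripts hardly touches these values.

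BAALC (ENSG00000164929, chromosome 8), a membrane-associated protein of immature haematopoietic cells, had low levels and a single call with DAC. In ELF-153 at 144 h it had 27.4, 23.9 and 15.4 scaled reads in treated against 48.6, 33.2 and 40.6 in untreated libraries (log2 change −0.87 ± 0.27, adjusted p = 0.0225, limma). That call was lost without untreated replicate 1 (−0.74), untreated replicate 3 (−0.86) or treated replicate 3 (−0.64), on coding classes alone (−1.33, adjusted p = 0.0528), in the 6 libraries of the line (adjusted p = 0.0666) and with the mitochondrial share as a covariate (−1.01, adjusted p = 0.062). ELF-153 at 96 h had 18.9, 25.3 and 28.4 in treated and 28.0, 51.2 and 37.4 in untreated libraries, which touched only at 28.4 and 28.0 (−0.64 ± 0.29, adjusted p = 0.11; −0.85 and adjusted p = 0.0475 without untreated replicate 1). UCSD-AML1 had 64.9, 105 and 92.3 in treated and 89.1, 60.5 and 67.8 in untreated libraries at 96 h (0.26, 95% interval −0.37 to 0.88). At 144 h it had 73.9, 89.2 and 101 against 91.1, 117 and 82.3 (−0.13, −0.72 to 0.46, with the sign turned to 0.08 under TMM scaling). Of its 1462 reads 65.7% lay on processed transcripts, and BAALC overlaps the antisense gene BAALC-AS1. That gene averaged 41.1 ± 6.5 scaled reads in treated and 22.6 ± 9.46 in untreated ELF-153 at 144 h, and without use of the strand its reads and those of BAALC cannot be told apart.

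SPINK2 (ENSG00000128040, chromosome 4), a secreted serine protease inhibitor whose RNA is a marker of the most immature haematopoietic cells, fell in ELF-153 and was at or near 0 in UCSD-AML1. At 96 h ELF-153 had 18.9, 23.5 and 34.2 scaled reads in treated against 164, 114 and 107 in untreated libraries (log2 change −2.29 ± 0.48, adjusted p = 0.0022, limma). At 144 h it had 27.4, 29.4 and 28.5 in treated against 125, 191 and 186 in untreated libraries (−2.49 ± 0.38, adjusted p = 0.000204). The 3 treated values at 144 h were nearly equal, and no treated library came near an untreated one. With the mitochondrial share as a covariate the 96 h change was −2.05 (adjusted p = 0.0773). UCSD-AML1 held 2 reads in treated and 0 in untreated cells at 96 h, and 1 and 3 at 144 h, so no fold is given. Almost all reads, 98.5%, lay on the coding transcript ENST00000506738, whose start lies 41 bases from that of the SPINK2 window shown above.

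**Figure D3:**
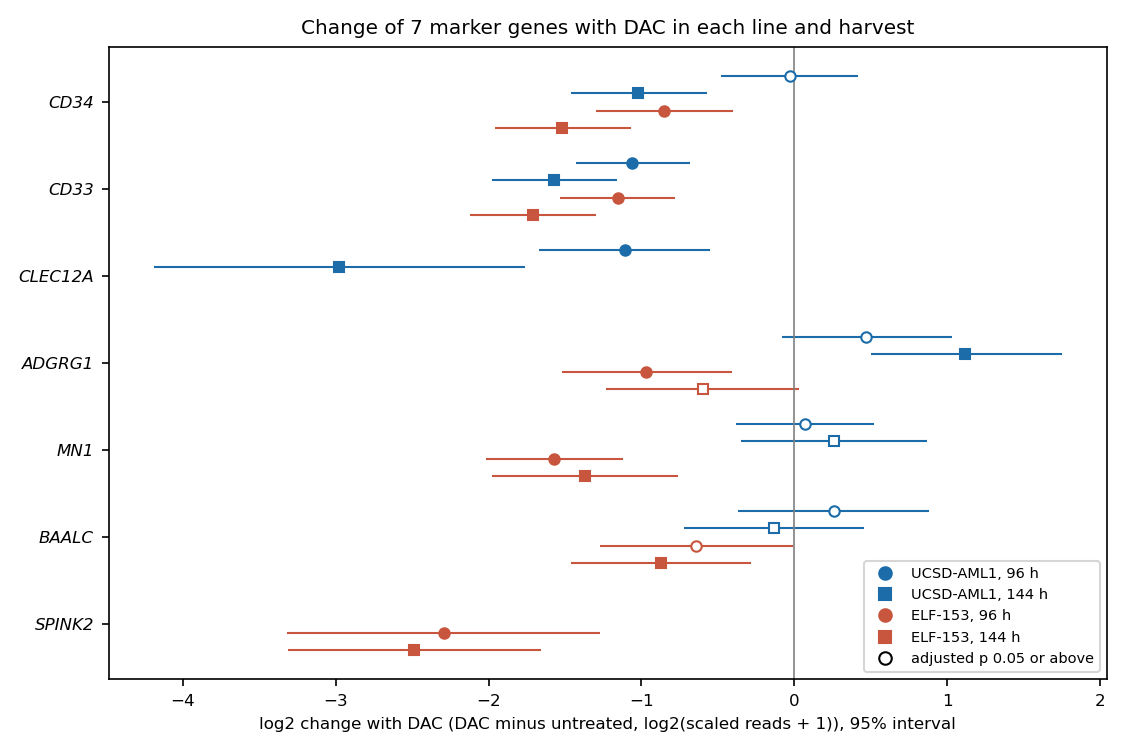
Log2 change with DAC (x axis, treated minus untreated, log2(scaled reads + 1)) of 7 members by line (colour) and harvest (shape), with 95% intervals over 3 libraries a group; filled symbols have adjusted p below 0.05 and open ones do not. CD33 lies left of 0 in all 4 comparisons (−1.06 to −1.71), ADGRG1 lies on opposite sides in the 2 lines, and MN1 and SPINK2 fell in ELF-153. CLEC12A in ELF-153 and SPINK2 in UCSD-AML1 are not drawn because both groups held 5 reads or fewer.

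Levels of the members also differed between the lines before treatment. In untreated ELF-153 against untreated UCSD-AML1 at 96 h, 3 of the 8 tested members were higher (CD33, ADGRG1 and SPINK2) and 3 lower (MN1, BAALC and CLEC12A), where 57.5% of all features were called, 22.8% higher and 34.7% lower. The same 3 were higher and the same 3 lower at 144 h, where 51.8% of features were called, 28.9% higher and 22.9% lower. CD33 was higher in ELF-153 by 0.71 ± 0.17 at 96 h (adjusted p = 0.00317) and 1.20 ± 0.19 at 144 h (adjusted p = 0.00018) on the log2 scale. ADGRG1 was higher by 1.10 ± 0.26 (adjusted p = 0.0025) and 1.50 ± 0.29 (adjusted p = 0.000879). On coding classes alone CD33 did not pass at either harvest (0.54, adjusted p = 0.356, and 1.29, adjusted p = 0.0748), and ADGRG1 at 96 h was lost on coding classes (0.60) and with the mitochondrial share as a covariate (0.31). MN1 was lower in ELF-153, by −1.34 ± 0.21 (adjusted p = 0.000103) and −1.77 ± 0.28 (adjusted p = 0.000195).

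BAALC differed by −0.90 ± 0.29 at 96 h (adjusted p = 0.0167) and −1.23 ± 0.27 at 144 h (adjusted p = 0.00226). The 96 h difference of BAALC missed the test under 5 of 10 other settings, namely TMM scaling (−0.63), edgeR (−0.62), DESeq2 (−0.64), coding classes (−0.54, adjusted p = 0.236) and the mitochondrial share as a covariate (−0.05, adjusted p = 0.953), and without untreated UCSD-AML1 replicate 1 (−0.75) or untreated ELF-153 replicate 1 (−0.70). Its 144 h difference missed the test on coding classes (−1.01, adjusted p = 0.108) and with that covariate (−1.07, adjusted p = 0.0606). CLEC12A was at least 914-fold lower in untreated ELF-153 at 96 h and at least 925-fold lower at 144 h on a floor of 3 reads per group. SPINK2 was at least 139-fold higher in untreated ELF-153 at 96 h, and at 144 h its read ratio was 161 (54.8 to 784). These 2 genes separated the lines almost completely. CD34 did not pass in untreated cells, with differences of 0.16 (95% interval −0.29 to 0.61) at 96 h and 0.26 (−0.18 to 0.70) at 144 h; on coding classes alone it was higher in ELF-153 by 0.80 (adjusted p = 0.00985) and 0.86 (adjusted p = 0.00638).

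After DAC, the set of members that passed the test between the lines changed, but none was called in the opposite direction. Treated ELF-153 against treated UCSD-AML1 had 3 tested members higher (CD33, CD38 and SPINK2) and 4 lower (CD34, CLEC12A, BAALC and MN1) at 96 h, where 42.5% of features were called, 20.6% higher and 21.9% lower. At 144 h it had 2 higher (CD33 and SPINK2) and 3 lower (CLEC12A, BAALC and MN1), where 44.2% were called, 29.7% higher and 14.5% lower. ADGRG1, which was higher in untreated ELF-153, did not differ by the test after DAC: −0.35 (95% interval −0.90 to 0.21) at 96 h and −0.22 (−0.85 to 0.41) at 144 h. The gap of MN1 was −2.98 ± 0.21 at 96 h (adjusted p = 7.03e-08) and −3.40 ± 0.28 at 144 h (adjusted p = 7.67e-07), and CD33 stayed higher in ELF-153 by 0.62 ± 0.17 (adjusted p = 0.0105) and 1.07 ± 0.19 (adjusted p = 0.000512), which on coding classes alone were 0.68 (adjusted p = 0.282) and 0.61 (adjusted p = 0.403). CD34 was lower in treated ELF-153 at 96 h by −0.66 ± 0.21 (adjusted p = 0.0198), a call lost without treated UCSD-AML1 replicate 1 (−0.61) or treated ELF-153 replicate 3 (−0.53), on coding classes (−0.36) and with the mitochondrial share as a covariate (−0.47). At 144 h its difference was −0.24 (adjusted p = 0.364), and −0.62 under TMM scaling (adjusted p = 0.0216), which moved the median of all features in that comparison to 0.01, against 0.38 as deposited.

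The 4 groups of each harvest were ordered by mean level. CD33 ran from untreated ELF-153 (507 ± 91.1 scaled reads at 96 h, 483 ± 47.5 at 144 h) through untreated UCSD-AML1 (306 ± 23.2 and 209 ± 17.8) and treated ELF-153 (225 ± 6.63 and 147 ± 7.27) to treated UCSD-AML1 (146 ± 13.6 and 70.6 ± 14.4), and no neighbouring ranges overlapped at either harvest. MN1 ran from treated UCSD-AML1 (4269.5 ± 1227 and 5478 ± 998) and untreated UCSD-AML1 (3966 ± 107 and 4902 ± 2541), which overlapped, to untreated ELF-153 (1589.6 ± 368 and 1337 ± 240.1) and treated ELF-153 (526 ± 48.7 and 514 ± 58.2), which did not. For CD34 at 96 h the 3 highest groups overlapped and treated ELF-153 (177 ± 32.7) stood below them. At 144 h the treated groups of both lines (137 ± 6.72 in UCSD-AML1 and 118 ± 27.6 in ELF-153) overlapped and lay below both untreated groups (278 ± 7.15 and 338 ± 73.5).

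**Figure D4:**
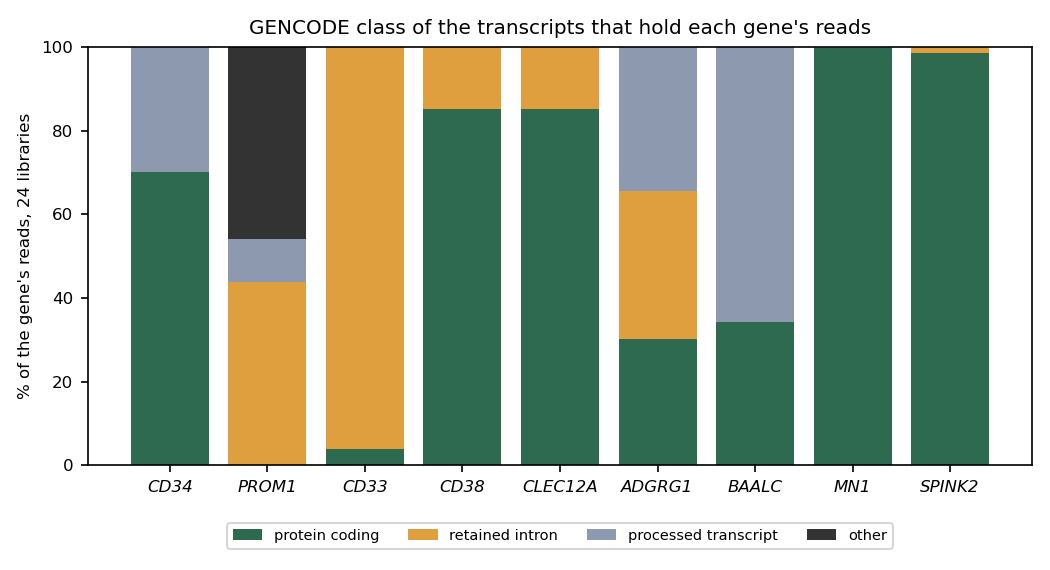
Share of each member's reads over the 24 libraries (y axis, %) on transcripts that GENCODE annotates as protein coding, retained intron, processed transcript or other. MN1 (99.8%) and SPINK2 (98.5%) are almost wholly coding, CD33 (4.01% coding) is almost wholly retained intron, and ADGRG1 and BAALC are mixed.

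Genes of the same field were read from 3 further lists. The 17-gene leukaemia stem cell score (LSC17), which contains CD34 and ADGRG1, had 14 genes tested. In ELF-153 2 rose and 6 fell at 96 h and 1 rose and 7 fell at 144 h; in UCSD-AML1 1 rose and 6 fell at 96 h and 2 rose and 8 fell at 144 h. Of all features, 20.1% rose and 12.7% fell in ELF-153 at 96 h, 20.4% and 18% in ELF-153 at 144 h, 19.7% and 19.6% in UCSD-AML1 at 96 h and 20% and 26.2% in UCSD-AML1 at 144 h, the shares against which this list and the next ones are read. Its median log2 changes were −0.42 and −0.67 in ELF-153 and −0.55 and −0.88 in UCSD-AML1, beside medians over all features of 0.16 and 0.11, and of −0.02 and −0.12. CPXM1, a carboxypeptidase-like gene, averaged 1209 ± 84.1 scaled reads in treated and 5095 ± 1015 in untreated ELF-153 at 144 h (−2.06 ± 0.19, adjusted p = 2.87e-06). SMIM24, a small membrane protein, had 5.62 ± 3.11 in treated and 66.8 ± 16.1 in untreated ELF-153 at 144 h (−3.46 ± 0.50, adjusted p = 0.000124). DNMT3B, which sets new CpG methylation, fell in UCSD-AML1 (−1.88 ± 0.42, adjusted p = 0.00292) and ELF-153 (−2.83 ± 0.42, adjusted p = 0.000158) at 144 h. EMP1, a membrane protein, had 64.8 ± 6.73 in treated and 591 ± 28.6 in untreated UCSD-AML1 at 144 h (−3.17 ± 0.32, adjusted p = 7.67e-06), whereas in ELF-153 it had 47.0 ± 18.2 and 18.1 ± 13.7 at 96 h and rose there (1.50 ± 0.40, adjusted p = 0.0102).

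Of 17 other stem, progenitor and leukaemia surface antigens tested, 8 rose and 2 fell in ELF-153 at 96 h and 7 rose and 3 fell at 144 h. In UCSD-AML1 6 rose and 4 fell at 96 h and 5 rose and 6 fell at 144 h. The median changes were 0.78 and 0.95 in ELF-153 (0.81 and 1.27 with near-0 genes at their ratio or bound) and 0.44 and 0.03 in UCSD-AML1. KIT, the stem cell factor receptor, fell in UCSD-AML1 at 144 h, with 123 ± 37.2 in treated and 1172 ± 468 in untreated cells (−3.20 ± 0.55, adjusted p = 0.000615). In ELF-153 KIT had 365 ± 199.5 and 339 ± 305 and did not pass (adjusted p = 0.664). IL2RA, the interleukin 2 receptor alpha chain, fell in both lines at 144 h (−3.12 ± 0.43 in UCSD-AML1, adjusted p = 0.000116, and −1.54 ± 0.43 in ELF-153, adjusted p = 0.0137). THY1, also called CD90, held 32 reads in treated and 1 in untreated ELF-153 at 144 h, a ratio of 32.7 (5.46 to 1329.8), and fell in UCSD-AML1 (−1.10 ± 0.34, adjusted p = 0.0197).

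Among 19 stem and progenitor transcription regulators tested, 3 rose and 7 fell in ELF-153 at 96 h and 5 rose and 7 fell at 144 h. In UCSD-AML1 5 rose and 5 fell at 96 h and 3 rose and 8 fell at 144 h. Against the shares of all features given for the 17-gene score, the rises in both lines and the even split in UCSD-AML1 at 96 h lay near the background. The median changes were 0.07 and −0.23 in ELF-153 and 0 and −0.38 in UCSD-AML1 (0.02 and −0.51 with near-0 genes at their ratio or bound). MECOM, the EVI1 stem cell regulator, averaged 1209 ± 94.5 in treated and 3459.5 ± 257 in untreated UCSD-AML1 at 144 h (−1.52 ± 0.24, adjusted p = 0.000229). ELF-153 held 37 MECOM reads in treated and 1 in untreated cells at 144 h, a ratio of 37.8 (6.37 to 1531). NKX2-3, a homeobox gene, was at 0 in UCSD-AML1 and fell in ELF-153 at 144 h to 79.9 ± 11.2 in treated cells, against 683 ± 192 in untreated cells (−3.05 ± 0.33, adjusted p = 9.73e-06). HLF, a stem cell transcription factor, fell in ELF-153 at 144 h (−2.58 ± 0.49, adjusted p = 0.00109) and rose in UCSD-AML1 at 96 h (1.82 ± 0.48, adjusted p = 0.00842) and at 144 h, where 12 reads in treated stood against 1 in untreated cells (ratio 11.2, 1.66 to 479.6, adjusted p = 0.0127). HOPX, an atypical homeodomain protein, fell in ELF-153 at 144 h (−2.67 ± 0.31, adjusted p = 2.01e-05) and in UCSD-AML1 (−1.58 ± 0.31, adjusted p = 0.00135).

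**Figure D5:**
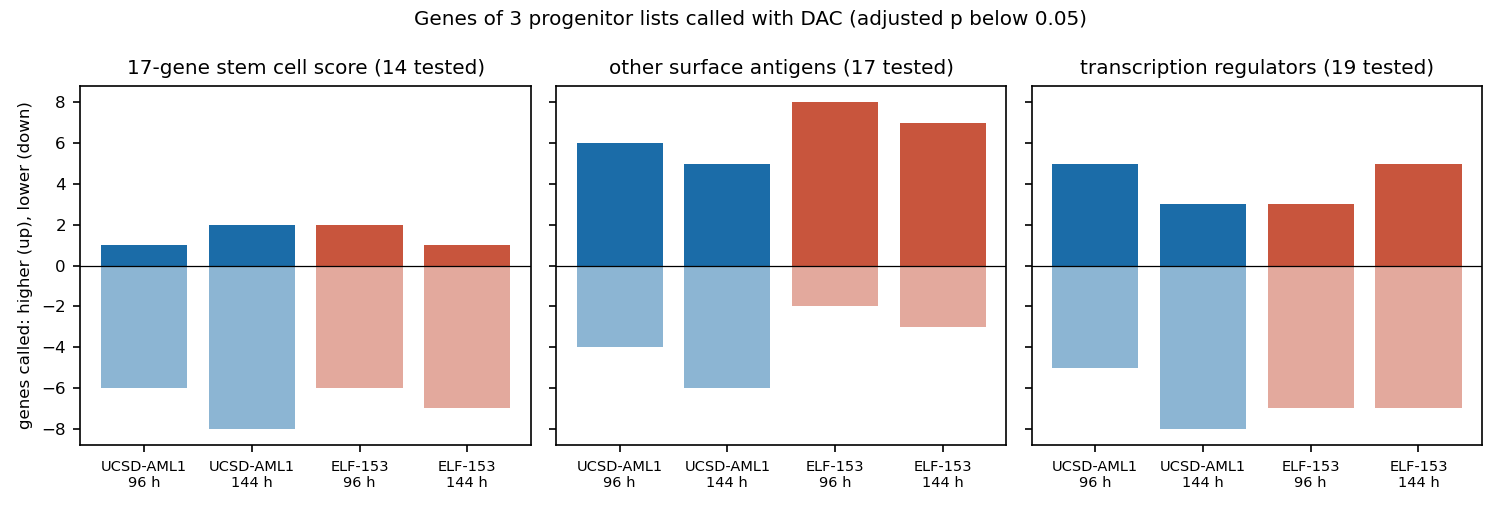
Number of genes (y axis) of 3 lists called higher (above 0) or lower (below 0, paler) with DAC at adjusted p below 0.05, by line and harvest. The 17-gene score has more falls than rises in all 4 comparisons, the other surface antigens have more rises than falls in ELF-153, and the regulators have more falls than rises except in UCSD-AML1 at 96 h, where 5 rose and 5 fell.

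For each member tested at both harvests, the coding gene with the most similar profile over the 24 libraries was found, as the smallest root mean square difference of log2 values after centring each harvest. The nearest genes were MECR for CD34 (0.28), UCK2 for CD33 (0.24), HSF1 for ADGRG1 (0.26) and LAPTM4B, itself a gene of the 17-gene score, for BAALC (0.36). SERPINB6 was nearest to MN1 (0.42), KLRF2 to CLEC12A (0.52) and GCHFR to SPINK2 (0.51). The members' own root mean square deviations from their harvest means were 0.55 for CD34, 0.85 for CD33, 0.57 for ADGRG1, 0.83 for BAALC, 1.33 for MN1, 4.37 for CLEC12A and 2.92 for SPINK2. For BAALC, MN1, CLEC12A and SPINK2, treated and untreated means of one line both lay above those of the other at both harvests, so these profiles largely follow the line.  These likenesses describe the 24 libraries and carry no test.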

How the data were processed

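Ribosomal RNA was depleted and stranded paired-end libraries were sequenced, per the labels' protocols. For the build hg19, the submitters' processing notes list DESeq2, HTSeq, STAR, TopHat2 and FastQC with no version or role. The deposited values are a signal: reads per Ensembl transcript divided by 1 factor per library, since all non-zero values were whole multiples of a library's step within a tolerance of 0.01.

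Of 204940 transcripts, 181859 (88.7%, holding 97.8% of the value) matched GENCODE release 29 and were summed to genes; 23081 unmatched ones were tested singly. Group means over the 12 libraries of a harvest were fitted with limma 3.58.1 (eBayes, trend, robust) in R 4.3.3 on log2(sum + 1), for sums of 10 or more in at least 3 libraries (18799 features at 96 h, 18293 at 144 h), with Benjamini-Hochberg adjustment at 0.05. Harvests were scaled apart and not compared. Genes near 0 got a bound on a floor of 3 reads per group or a read ratio with an exact conditional 95% interval.

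Alternatives were edgeR 4.0.16 (quasi-likelihood, TMM) and DESeq2 1.42.0 on recovered reads, TMM in limma, pseudocounts 0.5 and 8, other filters, fits to 1 line's 6 libraries, a replicate block, the mitochondrial ribosomal RNA share as covariate, coding classes only, and leaving out each library. Deviations of treated and untreated libraries of equal number correlated above 0 in all pairs only in UCSD-AML1 at 144 h (0.13, 0.12 and 0.26). Blocking changed no call of a member there. In ELF-153 at 96 h replicates 1 and 2 did so too (0.29 and 0.32), but replicate 3 did not (−0.04). Members, lists and tests were chosen with earlier results of these data known. All members are named, and of each list the 4 other genes with the largest change among those called at 144 h; 1 of these genes and the sums of 2 lineage marker lists are not reported here. The tests were checked on simulated data.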

Additional observations from a re-analysis of the deposited data

Results flagged for a closer look

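These 6 results were singled out because the DAC change differed between ELF-153 and UCSD-AML1 by limma's test of the difference itself, where 25% of all features were called at 96 h and 29.6% at 144 h. CLEC12A at 96 h and SPINK2 at both harvests also passed that test but are left out, since treated and untreated cells of one line both held 3 reads or fewer. MN1 changed by −1.57 in ELF-153 and 0.07 in UCSD-AML1 at 96 h, a difference of −1.64 (adjusted p = 0.0019). At 144 h the MN1 difference was −1.63 (adjusted p = 0.0114), and −1.02 (adjusted p = 0.0771) with the mitochondrial ribosomal RNA share as a covariate. ADGRG1 changed by −0.97 and 0.47 at 96 h, a difference of −1.44 (adjusted p = 0.0127; adjusted p = 0.0567 on coding classes). At 144 h the ADGRG1 difference was −1.72 (adjusted p = 0.0101; adjusted p = 0.0507 with that covariate). The CLEC12A difference at 144 h was 4.03 (adjusted p = 0.0037; 6.34 and adjusted p = 0.0539 by edgeR) and is made of a fall of −2.98 in UCSD-AML1 and 1.05 in ELF-153, where 5 reads in treated and 0 in untreated cells leave no room for a fall. The CD38 difference at 96 h was 1.79 (adjusted p = 0.0488) and rests on untreated groups of 1 read in ELF-153 and 0 in UCSD-AML1; it did not pass under 6 of the 10 other settings or without any of 10 of the 12 libraries in turn (adjusted p up to 0.748). Its size depends on the pseudocount, and what sets these differences was not tested.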

How the results depend on the processing

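Of 707 member values recomputed under other settings 643 kept their direction and call, 38 lost the call, 16 gained it and 10 changed sign; of 480 with a library left out, the figures were 451, 17, 6 and 6. The sign changes were all of values that had not passed the test. For CD34 in UCSD-AML1 at 96 h they were edgeR (0.10), DESeq2 (0.08), TMM (0.12), coding classes (0.15) and 2 left-out libraries (−0.14 to 0.14 over all 6). For BAALC in UCSD-AML1 they were the mitochondrial covariate (−0.18) and coding classes (−0.36) at 96 h, and edgeR (0.07), DESeq2 (0.08), TMM (0.08) and 1 left-out library (−0.24 to 0.01) at 144 h. MN1 in UCSD-AML1 at 96 h ran from −0.15 to 0.24 and ADGRG1 between treated lines at 144 h from −0.40 to 0.01 with a library left out. The difference of CD33 changes at 96 h was 0.14 on coding classes and −0.24 to 0.02 with a library left out.

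Counts over all genes stayed within 1.5 times the main count in 167 of 176 recomputations. With the mitochondrial share as a covariate they were 3613 (ELF-153 with DAC, 96 h, against 6152), 4785 (untreated lines, 96 h, against 10810), 6086 (untreated lines, 144 h, against 9467) and 2601 (difference of changes, 144 h, against 5408). The last ran from 2915 to 7298 with a library left out (2915 without treated ELF-153 replicate 2, 3284 and 3416 without untreated ELF-153 replicates 3 and 2, 3346 and 3526 without untreated UCSD-AML1 replicates 1 and 2, and 7298 without untreated ELF-153 replicate 1). Under TMM in limma the share of calls that were higher was 53.8% against 43.3% for UCSD-AML1 with DAC at 144 h, 50.3% against 39.7% and 47.5% against 67.2% for untreated lines at 96 h and treated lines at 144 h, and 53.5% and 52.2% against 65.6% for the differences of changes at 96 h and 144 h.

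A replicate block gave, over all genes, 8063 calls in UCSD-AML1 and 7034 in ELF-153 at 96 h, and 8362 and 6869 at 144 h, against 7374, 6152, 8440 and 7019. It changed 2 member calls, the differences of changes of CD38 (lost, adjusted p = 0.0673) and CD34 (gained, adjusted p = 0.0236) at 96 h. Correlations of equal numbers at 96 h were −0.07, 0.02 and −0.05 in UCSD-AML1, and 0.29, 0.32 and −0.04 in ELF-153. At 144 h they were −0.23, −0.31 and 0.16 in ELF-153. In neither line at either harvest did every library correlate best with its own number. In UCSD-AML1 at 144 h untreated replicate 2 correlated at 0.13 with treated replicate 1 and at 0.12 with treated replicate 2. Depth limits PROM1, CD38, BAALC and the coding reads of CD33, whose groups held few reads.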
